A study of Mus musculus with 2 samples.

Results

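The Peg3 and Snrpn domains are a pair of imprinted gene clusters on mouse chromosome 7, and 31 of the 49970 peaks in the deposited optimal list of CTCF binding sites had their summit in one of them. The Peg3 locus was taken as chr7:6571269-7091087 (mm10), which runs from 100 kb before Zim1 to 100 kb past Zfp264 and also holds Peg3 and Usp29; it contained 13 peaks. The Snrpn locus was taken as chr7:59128750-62520139, from 100 kb before Ube3a to 100 kb past Mkrn3, with Snrpn, Ndn and Magel2 between them; it contained 18 peaks. Both intervals were set by the positions of these 9 genes and not by any measured value. The data are CTCF chromatin immunoprecipitation sequencing (ChIP-seq) of limb from B6NCrl mouse embryos of embryonic day 14.5, as 2 libraries of a single group. The labels describe pulverised limbs from several dissections, males and females pooled. They number the libraries as biological replicates 1 and 2 but give both the same biosample, so the spread between them may be technical. No control sample was analysed here. Peak lists hold no transcript values, so the labelled tissue could not be checked against marker genes here. They hold no read counts either, and the depth is unknown. In bulk tissue, binding in fewer cells and weaker binding per cell cannot be told apart.

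CTCF is a zinc finger protein that binds a long directional motif, blocks contact between enhancers and promoters, and stops loop extrusion by cohesin. At imprinted clusters 1 parental copy of a control region is methylated, and CTCF is known to lose binding where certain CpG sites in its motif are methylated, as at the H19 control region. In the Peg3 domain the control region lies over the shared promoter of Peg3 and Usp29, is methylated on the maternal copy, and carries a known array of binding sites for the zinc finger protein YY1. In the Snrpn domain, the mouse counterpart of the Prader-Willi and Angelman syndrome region, the control region lies at the Snrpn promoter. Peaks from an inbred strain do not separate the parental copies, so each signal below covers both.

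A CTCF matrix of 20 positions was fitted to 1000 strong peaks on even-numbered autosomes, so no site of chromosome 7 entered it. A motif hit is a placement centred within 50 bp of a summit that scored at least as high as the best 5% of windows 1 kb away. Of the 31 peaks, 26 had such a hit, beside 83.0% of all optimal peaks. The sequences below are the hits at the start of Peg3 and Usp29, along the first stretch of Peg3, at the 3 strongest peaks of either locus, at the peaks nearest the starts of Snrpn, Ndn, Magel2, Mkrn3 and Ube3a, and at 2 sites whose sequence resembles one of these. All were read from GRCm38.p6, the reference behind mm10, and are written 5′ to 3′ on the strand of the hit, with the 20 bases of the hit in capitals and 10 bases on either side.
Peg3 intron, chr7:6727390-6727429, reverse strand: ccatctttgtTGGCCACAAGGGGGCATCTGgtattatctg
Peg3 intron, chr7:6727745-6727784, reverse strand: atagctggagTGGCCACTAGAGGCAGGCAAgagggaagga
Peg3 intron, chr7:6729252-6729291, forward strand: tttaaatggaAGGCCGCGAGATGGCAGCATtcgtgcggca
Usp29 intron, chr7:6918446-6918485, reverse strand: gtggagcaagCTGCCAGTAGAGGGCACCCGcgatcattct
Usp29 intron, chr7:6937301-6937340, reverse strand: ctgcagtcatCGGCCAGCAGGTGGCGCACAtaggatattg
Usp29 intron, chr7:6940922-6940961, forward strand: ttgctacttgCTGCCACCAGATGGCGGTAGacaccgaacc
Ube3a start, chr7:59228976-59229015, reverse strand: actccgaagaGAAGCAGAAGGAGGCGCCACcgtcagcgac
upstream of Snrpn, chr7:60617446-60617485, forward strand: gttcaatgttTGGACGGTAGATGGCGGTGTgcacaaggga
farther upstream of Snrpn, chr7:60728501-60728540, forward strand: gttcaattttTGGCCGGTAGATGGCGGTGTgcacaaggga
Gm9801 start, chr7:62209568-62209607, forward strand: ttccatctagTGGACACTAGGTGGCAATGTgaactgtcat
upstream of Magel2, chr7:62375829-62375868, reverse strand: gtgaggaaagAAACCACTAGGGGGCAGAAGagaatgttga
downstream of Magel2, chr7:62382588-62382627, reverse strand: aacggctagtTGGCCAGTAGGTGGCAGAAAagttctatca
between Magel2 and Mkrn3, chr7:62400356-62400395, reverse strand: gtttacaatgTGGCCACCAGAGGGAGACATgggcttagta
upstream of Mkrn3, chr7:62428513-62428552, reverse strand: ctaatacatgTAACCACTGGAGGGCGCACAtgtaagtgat
farther upstream of Mkrn3, chr7:62433442-62433481, reverse strand: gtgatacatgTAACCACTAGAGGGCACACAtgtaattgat

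The window below holds the summit nearest the Peg3 start and the first annotated starts of both genes that leave it, Peg3 to the left at position 6730431 and Usp29 to the right at position 6730578. It is shown on the forward strand, with the motif hit in capitals.
Peg3 and Usp29 starts, chr7:6730300-6730599, forward strand: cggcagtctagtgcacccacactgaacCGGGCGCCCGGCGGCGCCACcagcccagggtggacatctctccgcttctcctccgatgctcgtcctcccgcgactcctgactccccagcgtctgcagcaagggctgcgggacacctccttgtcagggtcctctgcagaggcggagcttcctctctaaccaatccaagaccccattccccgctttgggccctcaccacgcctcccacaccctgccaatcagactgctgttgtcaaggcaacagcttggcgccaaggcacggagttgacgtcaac

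The Peg3 locus divided into a group of weak CTCF peaks over the Peg3 start, a group of strong peaks deep inside Usp29, and 4 peaks on the Zim1 side. Pooled signal, which is the deposited signal value of a peak in the optimal list and on the same scale in the conservative and pooled lists, ran between 17.6 and 248.4 with a median of 48.9, beside a median of 58.4 over all optimal peaks on the main chromosomes. Replicate signals below are on the scale of each replicate's own list and are not comparable with pooled signals.

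**Figure D1:**
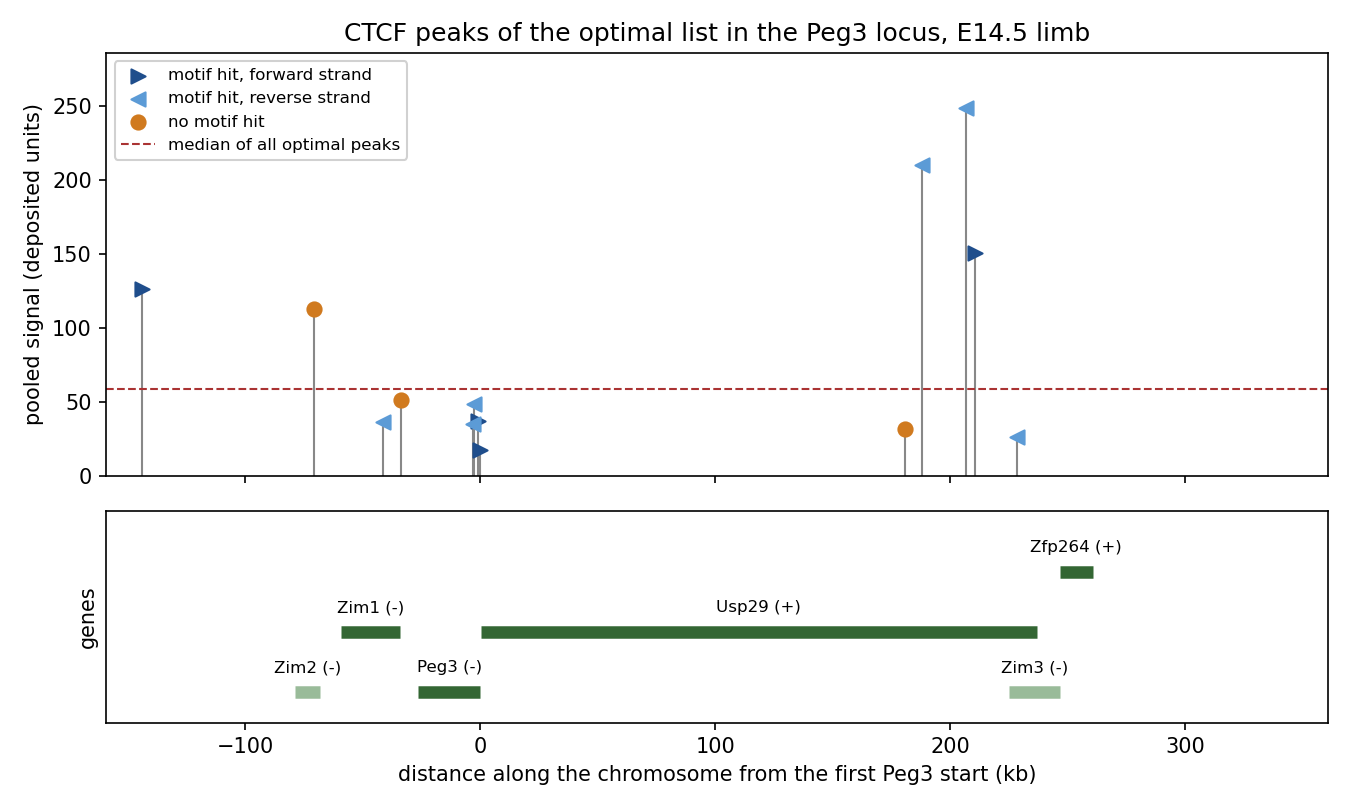
CTCF peaks in the Peg3 locus: the upper panel plots pooled signal against distance from the first Peg3 start, with triangles for the motif strand and circles for peaks without a hit, and the lower panel shows genes with their strand. The peaks over Peg3 all lie below the dashed median of all optimal peaks (58.4), and the 3 tallest stems, 150.6, 210.0 and 248.4, stand inside Usp29.

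Peg3 encodes a large zinc finger protein expressed from the paternal copy, and 4 peaks lay in its gene (chr7:6703892-6730431, reverse strand). All 4 were in the first 4 kb. The summit nearest the start lay 94 bp inside Peg3 and 241 bp upstream of the first start of Usp29, a paternally expressed gene of the ubiquitin-specific protease family. It had the lowest pooled signal of either locus, 17.6, above 4.32% of all optimal peaks. Replicate 2 gave it 9.27, and replicate 1 had no summit within 100 bp; its closest one lay 129 bp away with a signal of 5.69. This peak is absent from the conservative list. Its hit scored 7.86 (log2 odds, summed over the matrix), above the threshold of 6.71 but below 12.7, the score reached by 1% of flanking windows. The 20-base hit held 5 CpG, the most of any hit in the loci. Sequence around this summit was 69.2% GC, beside a median of 49.8% over all optimal peaks. Whether the CpG count follows from base composition was not tested.

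The other 3 peaks of Peg3 were stronger and were seen in both replicates. The summit 1142 bp inside the gene had a pooled signal of 37.2, with 20.8 in replicate 1 and 19.7 in replicate 2. At 2663 bp the pooled signal was 48.9, with 25.8 in replicate 1 and 23.8 in replicate 2. At 3027 bp it was 34.7, with 15.9 in replicate 1 and 18.4 in replicate 2. Replicates lay close together at each of them, and the last 2 summits stood 364 bp apart, the shortest spacing in the loci. The conservative list places 1 further peak among them, 347 bp from an optimal summit, with a pooled signal of 24.0 and replicate signals of 10.1 and 15.6.

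The YY1 core motif GCCATNTT, searched on both strands, occurred 12 times in these first 4 kb of Peg3, or 3.0 per kb, against 145 matches or 0.279 per kb over the whole Peg3 locus. The 4 kb limit was chosen after the peaks had been seen. All 12 matches were on the reverse strand, the strand on which Peg3 is transcribed, and they lay between 838 and 3126 bp inside the gene. A match lay within 100 bp of the summits at 2663 and 3027 bp, 77 and 19 bp away, and overlapped the CTCF hit at neither. Over both loci, 4 of 31 peaks had such a match, against 4.05% of all optimal peaks; the others were in Usp29 and near Gm9801, where the match overlapped the CTCF hit.

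Zim1, a zinc finger gene expressed from the maternal copy (chr7:6671269-6696450, reverse strand), had a peak 132 bp upstream of its first start. The pooled signal there was 51.4, with 39.5 in replicate 1; replicate 2 had no summit within 100 bp, and its closest, 108 bp away, had a signal of 16.7. No motif hit was found at this peak. A second summit lay 7510 bp inside Zim1, 268 bp upstream of an internal start, with a pooled signal of 36.1. Replicate 1 gave it 22.2 and replicate 2 gave it 12.4, and the summit was in repeat-masked sequence.

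Beyond Zim1, 2 stronger peaks stood on the far side from Peg3. The first, in an intron of the noncoding Zim2 gene 36.6 kb past the Zim1 start, had a pooled signal of 112.5, with 63.8 in replicate 1 and 46.5 in replicate 2, and no motif hit. The outermost lay in intergenic sequence 143.9 kb from the Peg3 start, with a pooled signal of 125.9, 67.8 in replicate 1 and 58.1 in replicate 2. It carried a forward-strand hit facing the Zim1 and Peg3 genes.

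Usp29 spans chr7:6730578-6967219 on the forward strand, and its first 180.5 kb held no optimal peak. The empty interval between the Peg3 start peak and the next summit was 180.8 kb wide, and 5.12% of the 49939 intervals between neighbouring optimal peaks in the genome were as wide. The pooled list places 28 peaks in it that are not in the optimal list, none above 12.1. That is 154.9 per Mb, beside 110.0 per Mb for the pooled list over the main chromosomes.

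After that interval came 5 peaks. The strongest of either locus, 206.7 kb inside Usp29, had a pooled signal of 248.4, with 125.9 in replicate 1 and 121.5 in replicate 2. It stood above 91.2% of all optimal peaks. The peak at 187.9 kb had 210.0, with 119.8 in replicate 1 and 94.6 in replicate 2. The peak at 210.3 kb had 150.6, with 79.4 in replicate 1 and 71.7 in replicate 2. All 3 carried hits, and those at 206.7 and 210.3 kb, 3.60 kb apart, pointed away from each other.

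The remaining peaks in Usp29 were weaker. At 180.5 kb the pooled signal was 31.6, with 16.8 in replicate 1 and 15.1 in replicate 2. The best placement there scored 6.49 (log2 odds, summed over the matrix), just under the threshold of 6.71, so the peak counts as having no hit. At 228.2 kb, where Usp29 overlaps the antisense gene Zim3, the pooled signal was 26.2 with 18.0 in replicate 1 and 6.90 in replicate 2. That summit was in repeat-masked sequence and is absent from the conservative list.

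Zfp264 (chr7:6977246-6991087), annotated in GENCODE as a transcribed pseudogene, had no peak within 1 kb of a start or in its body. Its nearest optimal peak was the one at 26.2, 18.5 kb upstream of its first start. No optimal peak lay in the 123.9 kb between the end of Usp29 and the edge of the interval, where the pooled list places 2 peaks, none above 14.4.

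The Snrpn locus was far sparser and uneven: 3 peaks at Ube3a, none over Snhg14 and Snrpn, 7 in the 2206 kb between Snrpn and Ndn, and 8 in the 173.6 kb from Ndn outward. Pooled signal ran between 20.1 and 141.6 with a median of 65.7.

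**Figure D2:**
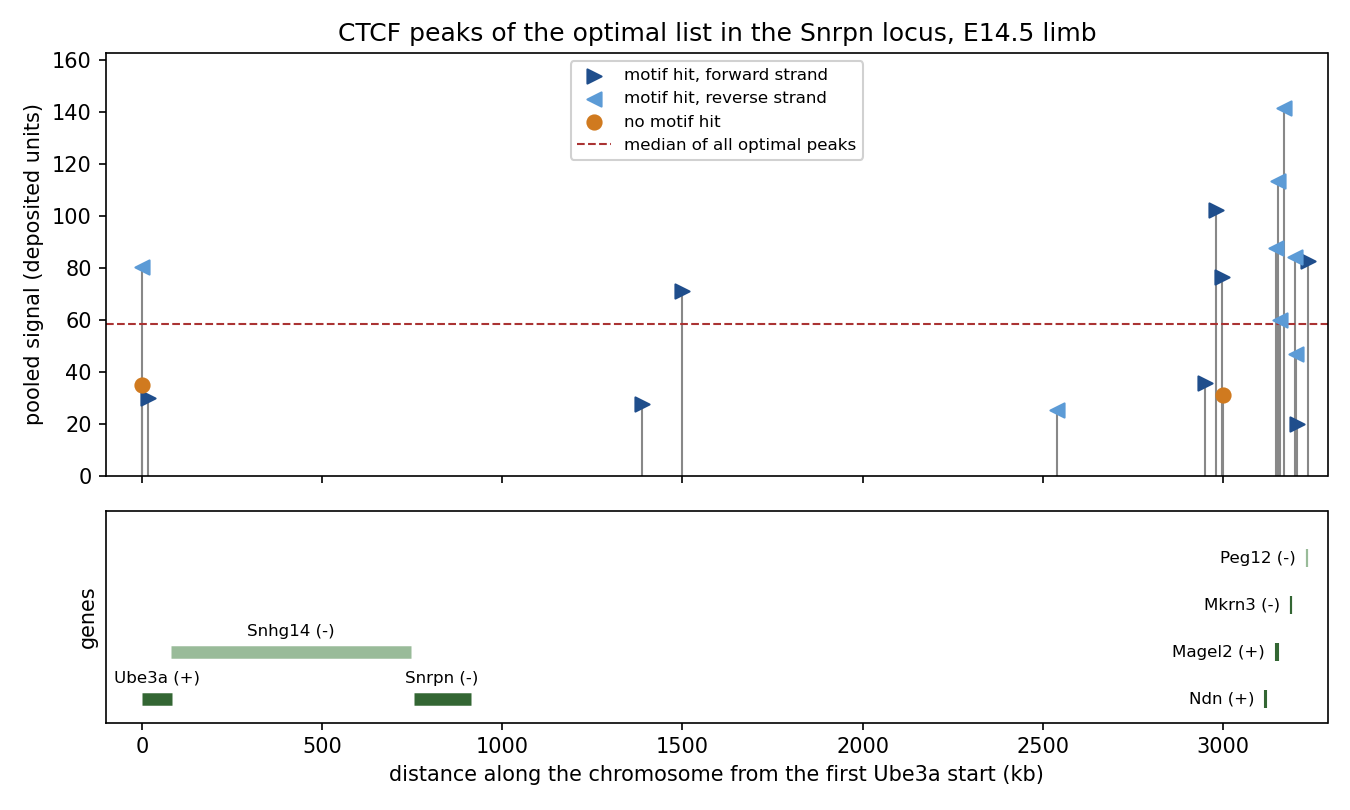
CTCF peaks in the Snrpn locus: pooled signal against distance from the first Ube3a start, with triangles for the motif strand, circles for peaks without a hit, and genes with their strand below. No stem stands over Snhg14 or Snrpn, and the peaks crowd at the right end, where the strongest of the locus reaches 141.6.

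Snrpn encodes a spliceosomal protein expressed from the paternal copy, and its promoter is the control region of the domain. The gene (chr7:59982495-60140219, reverse strand) has several annotated starts, and which of them lies in the control region was not determined here. No optimal peak lay within 100 kb of its first start in GENCODE, at position 60140219. The nearest to that start lay 477.2 kb upstream with a pooled signal of 27.6, and on the other side 894.5 kb downstream with 29.8. RefSeq annotates 4 Snrpn starts, which lay between 167.3 and 612.3 kb from that upstream peak; none had an optimal or a pooled-list peak within 1 kb. The start of Snurf lay 612.4 kb from the same peak and had none within 1 kb either. These values say that no peak was listed at these starts, which in lists without read counts does not show absence of binding.

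The interval between those flanking peaks was 1372 kb wide, and 85 of the 49939 intervals in the genome, or 0.170%, were as wide. Of its bases, 3.65% are unknown in the assembly and 53.7% are repeat-masked. The pooled list holds 18 peaks in it, 13.1 per Mb beside 110.0 per Mb over the main chromosomes, and the strongest had 33.5. The conservative list holds 2 of them, so the width of the interval depends on the list. Over Snhg14, the long noncoding transcript that runs antisense into Ube3a, and Snrpn together, 61.4% of 828.7 kb is repeat-masked, 6.03% is unknown, and 7 pooled-list peaks were found, none above 7.39. Reads are hard to place in repeats, and none can be placed on unknown bases; their part in the low count was not tested.

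Upstream of Snrpn, near-identical copies of a stretch carried CTCF hits. The peak 477.2 kb upstream had a pooled signal of 27.6, with 18.8 in replicate 1 and 6.69 in replicate 2. The peak 588.3 kb upstream had 71.3, with 33.9 in replicate 1 and 37.3 in replicate 2. In the conservative list a peak 129.3 kb nearer to Snrpn than the first had 33.5, with 18.0 in replicate 1 and 16.7 in replicate 2. Shared sequence links these 3 sites.

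The hit at 477.2 kb differed from the hit at 588.3 kb by 1 substitution, A4C, counted from 1 at the 5′ end of the hit with the base of the nearer site first; 94 of 100 bases centred on the hits were identical. It was identical in all 20 bases to the hit of the conservative-list peak, with 97 of 100 bases shared. Over all 406 pairs of hits in the loci, with hits at peaks of the conservative list alone included, the median was 31.0 of 100 bases. Reads could be split among such copies by the aligner; this was not tested. The conservative list has 1 further peak within the wide interval, with a pooled signal of 20.5, a replicate 2 signal of 10.3, no match in replicate 1 and no hit.

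Ube3a encodes a ubiquitin ligase expressed from the maternal copy in neurons and from both copies in most other cells. A pair of peaks flanked its first start (chr7:59228750-59311536, forward strand). The summit 242 bp inside the gene had a pooled signal of 80.6, with 43.2 in replicate 1 and 36.6 in replicate 2. The summit 394 bp upstream had 35.2, with 20.3 in replicate 1 and 15.4 in replicate 2, and no hit. At 636 bp apart this was the closest pair of the locus. Another peak, 17.0 kb inside Ube3a, had 29.8, with 14.1 in replicate 1 and 15.2 in replicate 2. Its summit, and the one 242 bp inside the gene, lay in repeat-masked sequence.

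The stretch between Snrpn and Ndn held 5 more peaks beside the pair of related sites. An isolated peak 576.5 kb upstream of Ndn, in an intron of A230057D06Rik, had 25.3, with 10.9 in replicate 1 and 13.7 in replicate 2. The other 4 lay between 115.4 and 167.0 kb upstream of Ndn, around the Gm9801 gene. The strongest of them, 96 bp upstream of the Gm9801 start, had a pooled signal of 102.4, with 49.4 in replicate 1 and 53.0 in replicate 2.

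Its neighbours were lower. The peak 118.7 kb upstream of Ndn had 76.7, with 33.2 in replicate 1 and 43.3 in replicate 2. The peak at 167.0 kb had 35.7, with 18.8 in replicate 1 and 16.1 in replicate 2. Replicate 2 was the higher at the 76.7 peak and replicate 1 at the 35.7 peak. Nearest to Ndn on this side, at 115.4 kb, a peak without a hit had 31.1, with 18.7 in replicate 1 and 14.2 in replicate 2. The conservative list adds a peak 3049 bp beyond it with 18.9, replicate signals of 8.41 and 9.76, and a hit.

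Ndn, Magel2 and Mkrn3 are intronless or nearly intronless paternally expressed genes. Ndn and Magel2 encode MAGE family proteins and Mkrn3 a ring finger protein that restrains the onset of puberty. None of the 3 had an optimal peak within 1 kb of its start, yet they stood in the densest stretch of the locus, with 46.1 peaks per Mb from Ndn to 100 kb past Mkrn3. The 8 peaks there had a median pooled signal of 83.4, and all 8 had a hit.

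Around Magel2 (chr7:62377010-62381640, forward strand) the peaks were among the strongest of the locus. The summit 1162 bp upstream of its start had a pooled signal of 87.6, with 43.8 in replicate 1 and 41.2 in replicate 2. The summit 5593 bp downstream of the start, past the end of the gene, had 113.7, with 60.1 in replicate 1 and 51.5 in replicate 2. At 11.5 kb downstream the pooled signal was 60.1, with 30.2 in replicate 1 and 29.5 in replicate 2. The strongest peak of the locus lay between Magel2 and Mkrn3, 23.4 kb and 19.8 kb downstream of their starts. It had a pooled signal of 141.6, with 74.9 in replicate 1 and 68.1 in replicate 2.

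Upstream of Mkrn3 (chr7:62417593-62420139, reverse strand) 3 summits lay at 8.41, 13.3 and 16.5 kb. The nearest had a pooled signal of 84.2, with 45.8 in replicate 1 and 38.7 in replicate 2. The middle one had 46.8, with 23.0 in replicate 1 and 21.7 in replicate 2. The farthest was the weakest of the locus at 20.1, with 10.2 in replicate 1 and 14.8 in replicate 2. Both replicates placed these 3 sites in the same order. The hits at 8.41 and 13.3 kb shared 18 of 20 bases, differing by G9A and G16A with the base of the nearer site first, and 79 of 100 bases around them were identical.

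From 1162 bp upstream of Magel2 to 13.3 kb upstream of Mkrn3, all 6 hits were on the reverse strand. The last 2 peaks of the locus had forward hits. One of them was the 20.1 peak, and the other lay 146 bp upstream of the start of Peg12, a paternally expressed gene related to Frat. That peak had a pooled signal of 82.7, with 39.5 in replicate 1 and 45.4 in replicate 2.

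Ndn (chr7:62346569-62350262, forward strand) stood farther from any peak. Its nearest optimal peak was the 87.6 peak upstream of Magel2, 29.3 kb downstream of the Ndn start in GENCODE and 27.6 kb from the start in RefSeq. In the pooled list, weak peaks that are not in the optimal list lay within 1 kb of the RefSeq start of Ndn, with a signal of 5.35, and of the Magel2 start, with 6.80. None lay at Mkrn3.

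**Figure D3:**
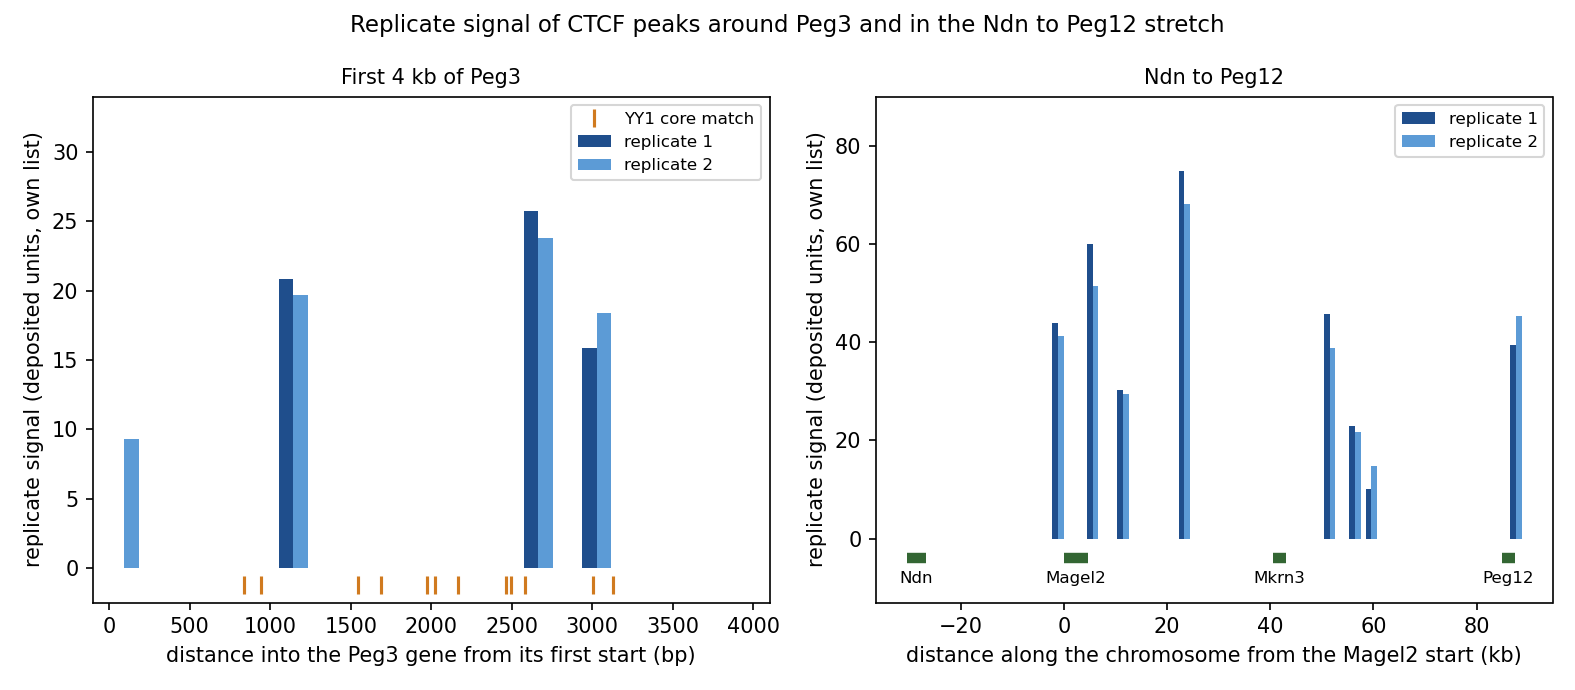
Replicate signals of the peaks in the first 4 kb of Peg3 (left, distance into the gene in bp, with YY1 core matches as ticks) and in the stretch around Ndn, Magel2, Mkrn3 and Peg12 (right, distance from the Magel2 start in kb, genes as green bars); the bars of replicate 1 and replicate 2 stand side by side at each summit. The Peg3 bars stay at or below 25.8, the peak nearest the start shows a bar for replicate 2 alone, and both replicates place the tallest bars on the right, 74.9 and 68.1, between Magel2 and Mkrn3.

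Counted by gene, 4 of the 9 genes had an optimal peak within 1 kb of a start: Peg3, Usp29, Zim1 and Ube3a. Over all protein-coding genes the share was 33.4%, which leaves out pseudogenes such as Zfp264, counted among the 9. Peg3 and Usp29 shared a single such peak, the one at 17.6, and in the conservative list, which lacks it, Zim1 and Ube3a were the 2 genes that had one. RefSeq starts, held for 8 of the 9 genes, gave the same 4. Of 6 further genes of the domains, Zim2, Zim3, Snurf, Snhg14, A230006K03Rik and Peg12, Peg12 had such a peak, and none of 13 Mir344 microRNA genes did. The share over all noncoding or microRNA genes was not computed.

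The 5 peaks without a motif hit were those upstream of Zim1, in Zim2, at 180.5 kb in Usp29, upstream of Ube3a and 115.4 kb upstream of Ndn, with pooled signals between 31.1 and 112.5. With a stricter threshold, reached by 1% of flanking windows, 19 peaks had a hit, beside 59.9%. Hits held a CpG in 6 of 10 cases in the Peg3 locus and 6 of 16 in the Snrpn locus, beside 42.0% of hits genome-wide. Methylation was not analysed here.

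Hits lay on the forward strand in 12 peaks and on the reverse strand in 14. Taken as neighbours, 9 pairs in the Peg3 locus were 3 convergent (facing each other), 4 tandem and 2 divergent. In the Snrpn locus, 15 pairs were 2 convergent, 10 tandem and 3 divergent. Pairs pass over peaks without a hit, and those of the Snrpn locus lay up to 1372 kb apart. Its tandem pairs include the related sites upstream of Snrpn, alike in 94 of 100 bases, and those upstream of Mkrn3, alike in 79. Genome-wide, 52.4% of 41427 neighbouring pairs were tandem.

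By position, 7 of 31 peaks lay within 1 kb of a transcript start, beside 21.0% of all optimal peaks. A further 15 lay in introns, beside 38.6%, 8 between genes, beside 35.2%, and 1 in an exon, beside 5.22%. Summits in repeat-masked sequence numbered 4, beside 17.4%. Pooled signal was at or above the median of all optimal peaks in 15.

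Replicates were compared as the log2 ratio of replicate 1 to replicate 2 after scaling each by its median over the optimal peaks, with the SD of that ratio among peaks of the same signal decile as the yardstick. A ratio could be formed at 29 of the 31 peaks and ran between -0.62 and 1.41. It lay beyond the yardstick at 6 peaks, beside 30.6% of all optimal peaks. The 2 largest were at weak peaks that are absent from the conservative list: 1.41 at the peak 477.2 kb upstream of Snrpn and 1.30 at the Usp29 peak overlapping Zim3, with yardsticks of 0.66 and 0.76. The next was 0.76 at the internal Zim1 start, with a yardstick of 0.57. Ratios at the remaining 3 were smaller, 0.38 in Zim2, 0.26 at the 210.0 peak in Usp29 and -0.46 at the peak 118.7 kb upstream of Ndn. The lowest ratio of the Peg3 locus was -0.29 at the summit 3027 bp inside Peg3, and the lowest of the Snrpn locus was -0.62 at its weakest peak; both were within the yardstick.

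**Figure D4:**
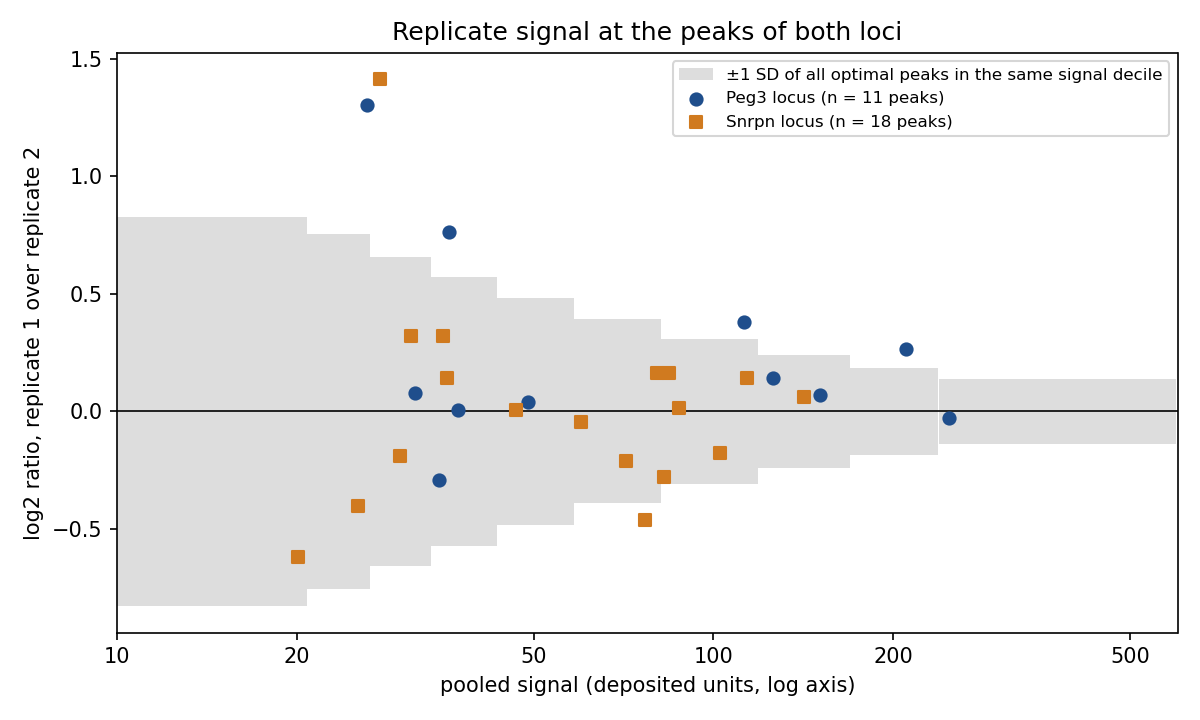
Log2 ratio of replicate 1 to replicate 2 against pooled signal (log axis) for the peaks with a value in both replicates, 11 in the Peg3 locus and 18 in the Snrpn locus; grey bands show 1 SD either side of 0 for all optimal peaks of the same signal decile. Points at 1.30 and 1.41 stand above the band at low signal, and most others lie within it.

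Among the strongest 49970 peaks of either replicate list, 26 of the 31 were found in both, beside 81.2%. The conservative list held 28 of the 31, beside 87.6%.

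Per length, the Snrpn locus had 5.31 optimal peaks per Mb and the Peg3 locus 25 per Mb, against 18.3 per Mb over the main chromosomes. Other imprinted intervals, each cut with the same 100 kb flank, were denser: 35.0 per Mb from Dlk1 to Dio3, 54.1 from Kcnq1 to Cdkn1c and 82.4 from Igf2 to H19. The flanks make up a larger share of shorter intervals, and lengths ran from 291.3 kb (Igf2 to H19) to 3391 kb (Snrpn locus). With no flank the Peg3 locus kept 11 peaks and the Snrpn locus 13. Densities without flanks were not compared. Median pooled signals were 48.9 in the Peg3 locus and 65.7 in the Snrpn locus, against 37.6 from Dlk1 to Dio3, 105.4 from Kcnq1 to Cdkn1c and 113.8 from Igf2 to H19. The Snrpn locus reached 46.9% repeat-masked sequence and the Peg3 locus 39.8%, against 16.1% to 24.6% in the other 3 intervals; the part of repeats in the density was not tested. With 1 interval of each kind and no replicate domains, these differences carry no test.

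**Figure D5:**
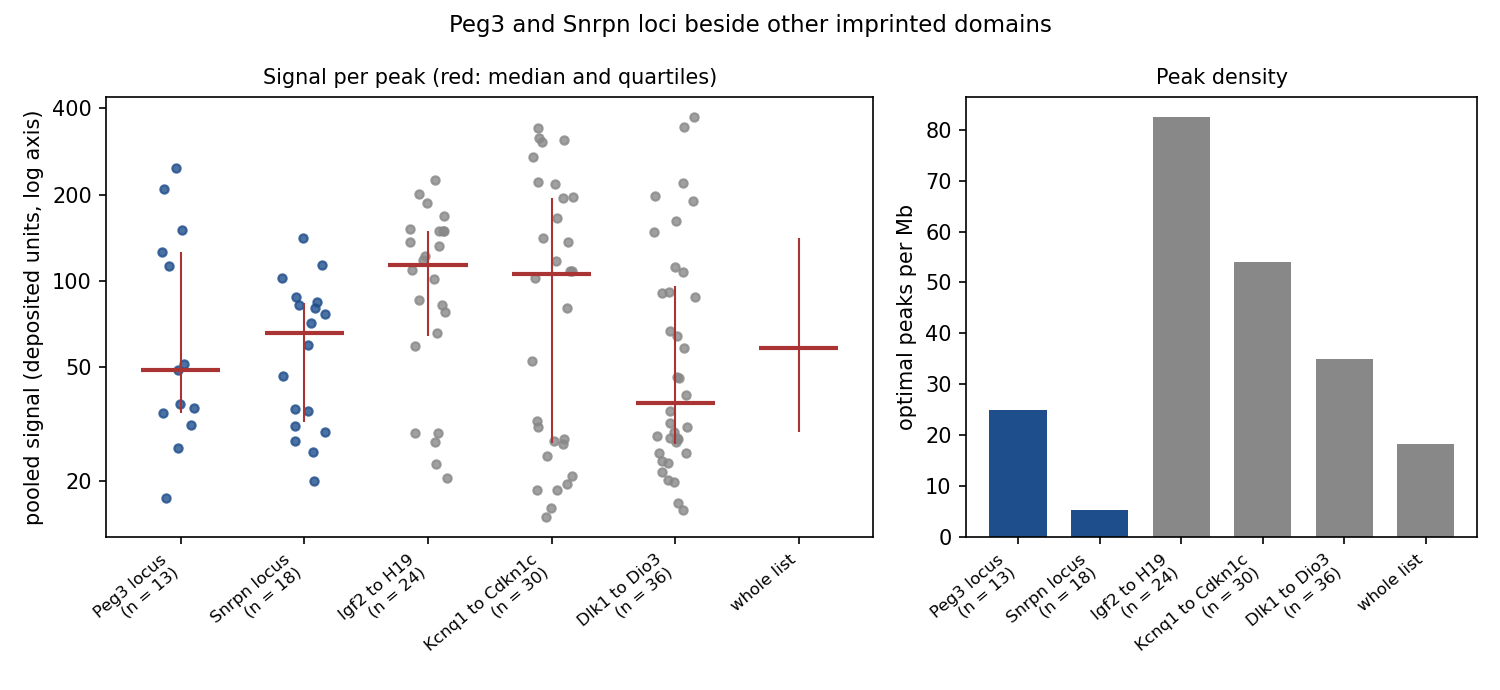
Pooled signal of each peak (left, log axis, red lines for the median and the quartiles) and optimal peaks per Mb (right) in the Peg3 and Snrpn loci, in 3 other imprinted intervals and over the whole list on the main chromosomes. The Snrpn bar, 5.31 per Mb, is the lowest of those shown, and both loci have medians, 48.9 and 65.7, on either side of 58.4 for the whole list.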

How the data were processed

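Peaks were taken from 5 lists that the authors deposited on mm10. Per the notes deposited with each library, the replicate lists came from 1 library each, the pooled list from both, and the conservative and optimal lists from those 3. The aligner, peak caller, control, signal normalization and reproducibility settings (IDR) are unknown, being not given in the sources used here. Signal values as the authors deposited them were the same in the optimal and pooled lists at all 49970 optimal summits (within 0.01%), so these lists share a scale; each replicate list has its own.

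Each optimal peak was matched to the nearest replicate summit within 100 bp. Genes and the transcript starts used for promoter peaks came from GENCODE M21, and the RefSeq table gave a second set of starts. Both were on GRCm38.p6, and no peak of either IDR list ran past a chromosome end. The CTCF matrix was refined over 10 rounds. The motif search and summit matching were tested on simulated data. Computations used Python 3.11.15 with numpy 2.4.6, pandas 2.3.3 and matplotlib 3.10.9.

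The genes and lists were chosen with earlier results of these data known. Every optimal peak of the loci and all 9 genes are named. With a single group no contrast between conditions exists, and every comparison is a description without a test. Alternatives changed the list, signal threshold, replicate, flank, motif threshold and promoter distance.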

Additional observations from a re-analysis of the deposited data

How the results depend on the processing

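Of 53 alternative values over 11 results, 13 moved: a count by more than 1.5 times, or a median by more than the SD between the 2 replicates (12.9 in the Peg3 locus, 4.23 in the Snrpn locus). Among the other 40 the median of the Peg3 locus was as low as 37.2, with no flank, against 48.9. The SD of 12.9 came from replicate medians of 32.6 and 21.7 before scaling, over 12 peaks each but not the same ones. Replicate 1 lacked the peak at the Peg3 start and replicate 2 the one upstream of Zim1. That SD thus mixes unlike peaks with replicate spread, so a Peg3 median counted as not moved is not shown to be stable. With optimal peaks of at least the median signal alone, the Peg3 locus kept 5 peaks with a median of 150.6 and the Snrpn locus 10 with a median of 83.4, against 13 and 18 in the full list. The Snrpn median of 65.7 was 53.4 in the conservative list and 71.3 with no flank. Leaving out 1 replicate took the strongest 49970 peaks of the other, scaled to the pooled median. This gave 58.3 over 19 peaks without replicate 1 and 49.8 over 20 without replicate 2. These sets differ from the 18 optimal peaks, and no whole-list median was computed for them. The Snrpn median was above that of the whole optimal list, 58.4, but below that of the whole conservative list, 60.5. At the 18 optimal peaks the replicate medians were 31.7 in replicate 1 and 33.1 in replicate 2. Over all optimal peaks with a match they were 31.2 and 29.6. Promoter peaks of the Peg3 locus numbered 8 within 5 kb, against 3, and those in both replicates 6 among the strongest 30000 peaks, against 10. In alternatives chosen after seeing the data, genes with a promoter peak numbered 2 in the conservative list and 2 when either replicate was left out, against 4; in all 3 they were Zim1 and Ube3a. No paired analysis was possible because the series has 1 group. Depth is unknown, so weak sites may have gone unlisted.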
